A study of Homo sapiens with 8 samples.

Results

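The genes described here are the zinc finger genes of human chromosome 19, taken as the protein-coding genes placed on chromosome 19 whose symbol starts with ZNF and a digit. The deposited table held 249 of them among 58735 genes, and 193 had enough reads to be tested. Of the other 56, 41 had at least 1 read in some library and 15 had none.

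The RNA came from U2OS cells, a human osteosarcoma line, in 4 groups of 2 libraries each, 8 in all. Control cells carried a control shRNA and are labelled WT, whereas KD cells carried an shRNA against WSB2, the substrate-binding subunit of a cullin-RING ubiquitin ligase whose possible action on the NF-κB subunit RelA the study examined. Each kind of cell was left untreated or was treated with the NF-κB-activating cytokine TNF-α over 5 h. The labels did not name the shRNA, and the methods describe selected pools of virus-infected cells, so the KD cells stand for 1 knockdown population, shared by its replicates. Nothing says that the 2 libraries of a group came from separate cultures, so the p-values measure only the spread between these libraries, which may be technical.

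C2H2 zinc finger proteins bind DNA through a row of repeated fingers, in each of which a pair of cysteines and a pair of histidines hold a zinc ion. Neighbouring fingers are often joined by the linker TGEKP. Many of those on chromosome 19 also carry a KRAB box near the amino terminus, which recruits TRIM28 (KAP1) and, through it, the histone methyltransferase SETDB1 and heterochromatin proteins. KRAB zinc finger proteins are best known for silencing transposable elements, and most of their genes lie in clusters formed by repeated duplication.

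Translation of the longest annotated coding sequence gave 209 members with the letters of a KRAB box and 39 without, and 1 readthrough gene, ZNF625-ZNF20, had no coding sequence to count. The search used short patterns and can miss a degenerate box. Among the 193 members tested, the 161 with KRAB letters had a median of 13 C2H2 fingers and a median exon GC content of 43.2%, and the 32 without had a median of 9 fingers and 60.1% GC. The last positions of codons differed more, with a median of 38.3% GC in the first class and 71.6% in the second. The number of fingers in the tested members ran from 1 in ZNF428 to 31 in ZNF91.

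The difference in base composition can be read in the finger repeat itself. The lines below give, for 7 members on which the results turn, the first finger followed by a TGEKP linker and 2 more residues, as 84 bases of coding sequence from the GENCODE v29 transcripts, 5′ to 3′ on the strand of the gene, with the codons of the 2 cysteines and 2 histidines in capitals. Each lies within a single coding exon. The first 4 are members that were higher in unstimulated KD cells, and the last 3 were lower.
ZNF146: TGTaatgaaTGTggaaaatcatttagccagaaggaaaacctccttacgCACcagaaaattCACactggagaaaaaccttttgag
ZNF121: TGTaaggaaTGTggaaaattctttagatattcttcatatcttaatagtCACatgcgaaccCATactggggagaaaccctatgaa
ZNF845: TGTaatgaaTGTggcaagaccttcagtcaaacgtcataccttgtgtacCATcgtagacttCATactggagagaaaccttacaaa
ZNF160: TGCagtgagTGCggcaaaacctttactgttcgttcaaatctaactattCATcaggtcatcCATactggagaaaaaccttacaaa
ZNF787: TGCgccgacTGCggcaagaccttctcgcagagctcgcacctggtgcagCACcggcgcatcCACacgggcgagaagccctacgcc
ZNF865: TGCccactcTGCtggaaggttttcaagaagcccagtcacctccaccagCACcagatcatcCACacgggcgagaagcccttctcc
ZNF71: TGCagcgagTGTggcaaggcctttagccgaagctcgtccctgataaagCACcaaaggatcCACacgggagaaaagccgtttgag

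In GRCh38 the ZNF146 unit is chr19:36236660-36236743 on the plus strand and the ZNF787 unit is chr19:56088803-56088886 on the minus strand. Their GC contents were 38.1% and 69.0%. The linker is the same in protein and different in DNA: TGEKP is written actggagaaaaacct in ZNF146, at 40% GC, and acgggcgagaagccc in ZNF787, at 73.3% GC. The ZNF865 unit, chr19:55614672-55614755, has the same linker bases as ZNF787, and the ZNF160 unit, chr19:53069592-53069675, has those of ZNF146. The ZNF71 unit, chr19:56621681-56621764, stood between them at 54.8% GC. Those of ZNF121, chr19:9566594-9566677, and ZNF845, chr19:53351660-53351743, had 35.7% and 40.5%.

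The values are FPKM, fragments scaled to exon length and library size, so levels of different genes can be compared per length. Most members were scarce: of the 193 tested, 110 had a mean under 1 FPKM over the 8 libraries, 73 lay from 1 to 10, and 10 reached 10 or more. The 12 highest were ZNF358, ZNF428, ZNF787, ZNF865, ZNF581, ZNF574, ZNF580, ZNF524, ZNF579, ZNF146, ZNF526 and ZNF444. None of these 12 carried KRAB letters, and ZNF146 (OZF), a short protein made almost wholly of fingers, was the only one of them with an exon GC content under 50%. The scarce end included ZNF93, a repressor of LINE-1 elements, with 12 reads over the 8 libraries, and ZNF382, a KRAB repressor, with 7. Neither was tested.

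The libraries held 15601098 to 18677023 recovered reads. The target checked the labels: WSB2 averaged 27.9 FPKM ± 0.198 (SD, n = 2) in control cells without and 25.1 ± 0.196 with TNF-α, and 8.45 ± 0.0955 and 9.09 ± 0.128 in the matching KD groups. The 2 unstimulated KD libraries stood apart from the other 6 in composition. They had more mitochondrial reads (4.10 to 4.42%, elsewhere 1.11 to 2.03%) and a lower read-weighted GC content (49.5 to 50.0%, elsewhere 52.6 to 53.3%). Their reads also reached more genes, 26225 to 26397, where the rest reached 22072 to 22957. The part of these differences in the results below was not tested, and it cannot be told apart from the condition, since both libraries of that group have them. The 2 unstimulated control libraries differed most from each other. A chi-square between the reads of 2 libraries, over its degrees of freedom, was 30.1 for them. It was 7.23 in unstimulated KD cells, 4.31 in control cells with TNF-α and 2.45 in KD cells with TNF-α. The tests below use 1 spread shared by all groups. Of 8 genes fixed as mesenchymal or osteoblast markers, 6 had a mean over 1 FPKM, COL1A2 was nearly absent and TWIST1 was at 0 in all libraries. Of 9 markers of other cell types only KRT14, at 18.1 FPKM, exceeded 1.

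Chromosome 19 ZNF transcripts took a larger share of the reads in unstimulated KD cells. The change ran in opposite directions in the genes with KRAB letters and in those without them at 50% GC or more. Members took 0.235 and 0.245% of the reads of the unstimulated KD libraries and 0.138 to 0.149% in the other 6. The median level of the 161 genes with KRAB letters was 0.485 and 0.559 FPKM in unstimulated control cells and 1.16 and 1.26 in unstimulated KD cells. Within this class the 10 genes at 50% GC or more had medians of 1.73 and 1.804 FPKM in unstimulated control cells and 1.43 and 1.47 in unstimulated KD cells. Gene by gene, however, 6 of these 10 had a log2 fold change above 0 in the test below. The 20 genes without KRAB letters and with 50% GC or more went down, from medians of 8.12 and 6.86 to 4.15 and 4.29 FPKM. The summed FPKM of all members, 406 and 411 in unstimulated KD cells, lay within the 363 to 415 of the other libraries. Those few genes are abundant and weigh heavily in this sum. The sum also depends on the library size used for FPKM. That size was 1.21 times the recovered reads in the unstimulated KD libraries and 0.925 to 1.03 times in the other 6. In a bulk sample, more RNA of a kind per cell and more cells with that RNA cannot be told apart.

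**Figure D1:**
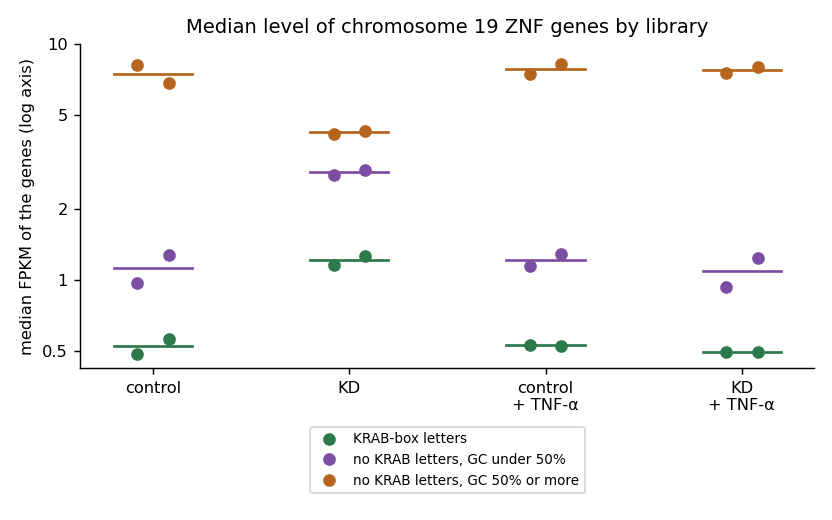
Median FPKM (log axis) of 3 classes of tested chromosome 19 ZNF genes in each of the 8 libraries; points are libraries and bars are the mean of the 2 libraries of a group. The unstimulated KD libraries are the highest for the genes with KRAB letters, at 1.16 and 1.26, and for the low-GC genes without them, and the lowest for the GC-rich genes without them, at 4.15 and 4.29.

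Gene by gene, KD was compared with control in unstimulated cells by limma, which tests all 16528 genes with enough reads on log2(FPKM + 1), with Benjamini-Hochberg adjustment over them and calls at an adjusted p under 0.05. On this scale the change of genes near or under 1 FPKM is understated. Of the 193 members, 126 rose (65.3%) and 20 fell (10.4%). Of all genes tested, 29.8% rose and 30.2% fell. The median log2 fold change was 0.37 over the members and 0.00 over all genes tested. In 15 members the rise, and in 6 the fall, was over 1 log2 unit. Such large changes were not particular to the members. The 95th percentile of the log2 fold changes was 1.13 over the members and 1.14 over all genes tested, and the 5th was -0.78 and -1.01. Among ZNF genes of other chromosomes, 122 of 235 rose and 45 fell, with a median of 0.28. Among other protein-coding genes of chromosome 19, 19 of 791 rose and 561 fell, with a median of -0.65.

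The split followed base composition, with the 50% boundary chosen after the values were seen. Of the 163 members with exon GC content under 50%, 125 rose and 0 fell, and of the 30 at 50% or more, 1 rose (ZNF135) and 20 fell. Since the library composition differed in the same direction, the background matters: of all tested genes under 50% GC, 50.2% rose and 9.76% fell, and of those at 50% or more, 5.13% rose and 55.1% fell. For the members these shares were 76.7% and 0%, and 3.33% and 66.7%. The rank correlation between GC content and log2 fold change was -0.58 over the 193 members and -0.69 over 16520 genes with a known GC content, a description across genes that share the same libraries. The KRAB class largely overlaps with this split. With KRAB letters 117 of 161 genes rose and 2 fell (ZNF71 and ZNF324), and without them 9 of 32 rose and 18 fell. But the 12 genes that lack KRAB letters and have under 50% GC moved with the low-GC genes, 9 rising and 0 falling. At 50% GC or more the 2 classes differed. Of 10 genes with KRAB letters 1 rose and 2 fell, with a median log2 fold change of 0.04. Of 20 without them 0 rose and 18 fell, with a median of -0.78. These 2 sets also differ in median GC content, at 53.0% and 63.1%.

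The GC trend over all genes tested was removed from each library in 2 ways, each on its own scale. A spline in GC content and exon length was subtracted on the log2(FPKM + 1) scale, and, as an alternative added after the data were seen, on the log2 scale of recovered reads scaled to library size in a voom fit, which does not compress low levels. The members' median log2 fold change went from 0.37 to 0.12 on the first scale and from 1.10 to 0.48 on the second. A trend with GC content stayed within the members. After the 2 corrections its rank correlation with log2 fold change was 0.07 and -0.34 over the 193. It was 0.31 and -0.12 with KRAB letters and -0.43 and -0.64 without them. In the first corrected fit, 61 members were called higher (31.6%) and 34 lower (17.6%), against 23.7% and 28.1% of all genes, and the median over all genes was -0.02. In the second, 72 were called higher (37.3%) and 11 lower (5.70%), against 15.6% and 27.9% of all genes, and the median over all genes was -0.10. ZNF genes of other chromosomes were near the members. In the 2 corrected fits 31.9% and 34.0% of them were called higher and 11.9% and 6.81% lower, with medians of 0.15 and 0.30. Of the 126 members that rose without correction, 51 were also called higher in both corrected fits, and of the 20 that fell, 7 were also called lower in both: ZNF358, ZNF414, ZNF428, ZNF444, ZNF581, ZNF71 and ZNF787. The matching counts over all genes are not given here, so whether members kept their calls more or less often than other genes cannot be read from these. The 2 corrections disagreed at the scarce end, where a trend subtracted from log2(FPKM + 1) can exceed the gene's own signal.

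**Figure D2:**
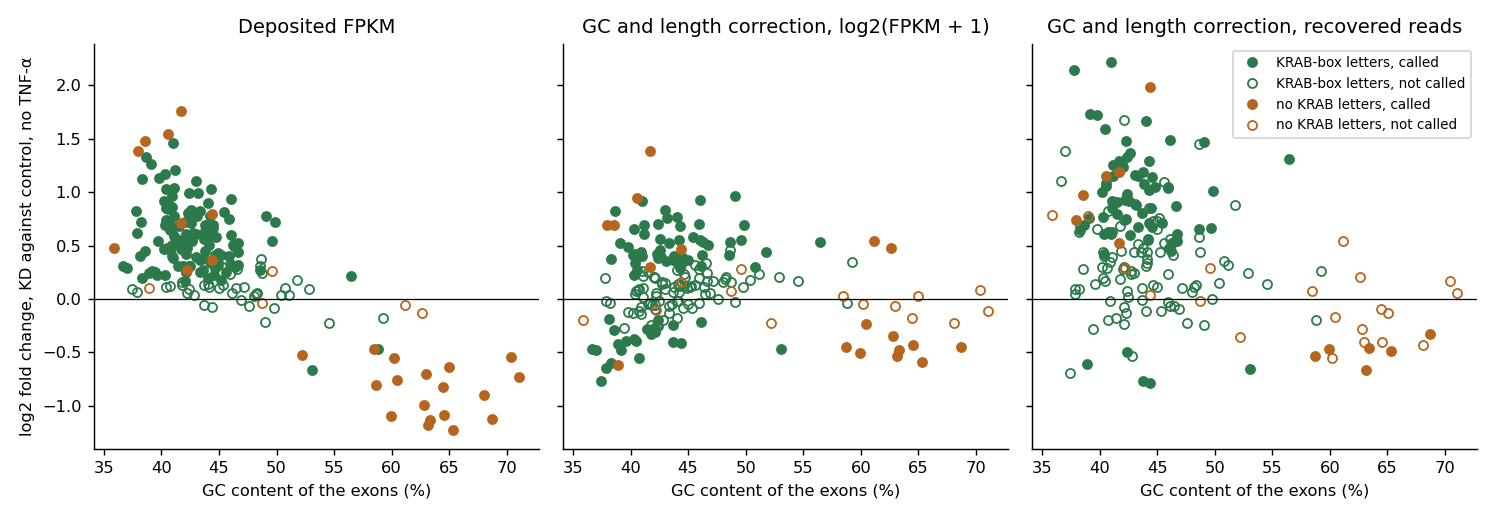
Log2 fold change of KD against control without TNF-α (y axis) against the GC content of the exons in percent (x axis) for the 193 tested members, from the deposited FPKM, after correction on log2(FPKM + 1), and after correction on recovered reads with voom. Filled points were called at an adjusted p under 0.05. Without correction the 30 members at 50% GC or more include 20 called lower and 1 called higher, and in the third panel they include 7 and 1.

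The member with the largest rise was ZNF146. It was at 6.39 and 7.25 FPKM in unstimulated control cells, 25.1 and 25.7 in unstimulated KD cells, 9.17 and 8.23 in control cells with TNF-α, and 7.30 and 8.45 in KD cells with TNF-α. The unstimulated KD libraries alone were high, and the other 6 lay together. Its log2 fold change in unstimulated cells was 1.76 (SE 0.10, limma adjusted p = 0.000119), and it was 1.38 after the GC correction and 1.19 in the voom fit with the correction. The gene lies at chr19:36214602-36238774 on the plus strand, and 10.8% of its exon bases are shared with ZNF565 on the other strand. Whether reads there were divided depends on strand-specific counting, which the sources used here do not state.

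ZNF121 and ZNF845 showed the same pattern of 1 high group. ZNF121, with 9 fingers and no KRAB letters, was at 1.15 and 1.29 FPKM in unstimulated control cells and 5.21 and 5.77 in unstimulated KD cells, and from 1.42 to 1.68 in the 4 libraries with TNF-α. Its log2 fold change was 1.55 (SE 0.11), and 0.94 and 1.15 in the 2 corrected fits. ZNF845, a KRAB gene with 26 fingers, went from 0.155 and 0.519 FPKM to 2.27 and 3.09, with 0.511 to 0.740 in the libraries with TNF-α. Its log2 fold change of 1.46 (SE 0.15) was 0.92 after correction on log2(FPKM + 1) and 2.22 (SE 0.34) on recovered reads. The 2 control libraries of ZNF845 differed from each other by more than those of ZNF121, and in both genes the control and KD libraries did not overlap.

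ZNF507, ZNF260, ZNF404, ZNF780B and ZNF28 completed the 8 largest rises, with log2 fold changes of 1.48, 1.38, 1.33, 1.27 and 1.21. All 5 have exon GC contents from 38.0 to 41.1%, and all 5 were also called higher in both corrected fits. ZNF260 has 13 fingers and no KRAB letters, and ZNF404, ZNF780B and ZNF28 are KRAB genes. ZNF404 shares 17.6% of its exon bases with a second annotated gene.

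The largest fall was that of ZNF787, which has 7 fingers and no KRAB letters. It was at 30.0 and 23.2 FPKM in unstimulated control cells, 10.7 and 10.6 in unstimulated KD cells, 28.8 and 31.2 in control cells with TNF-α, and 30.7 and 31.3 in KD cells with TNF-α. The unstimulated KD libraries were the low ones and did not overlap with any other group. Its log2 fold change was -1.23 (SE 0.12, limma adjusted p = 0.000189), and -0.59 and -0.49 in the 2 corrected fits. ZNF414, ZNF581, ZNF358, ZNF428, ZNF524, ZNF580 and ZNF296 followed, from -1.18 to -0.90. ZNF358, the most abundant member, was at 44.3 and 29.8 FPKM in unstimulated control cells and 16.1 and 16.3 in unstimulated KD cells, so the 2 controls were themselves 14.5 FPKM apart. Of these, ZNF358 shares 34.4%, ZNF428 27.6%, ZNF581 23.4%, ZNF580 15.1% and ZNF524 14.1% of exon bases with other genes.

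ZNF865, the most GC-rich member tested at 71.1%, fell from 20.6 and 17.7 FPKM to 11.4 and 10.8, a log2 fold change of -0.73 (SE 0.09). After correction it was -0.12 on log2(FPKM + 1) and 0.06 on recovered reads, with adjusted p-values of 0.167 and 0.649 from limma. ZNF526 and ZNF579 likewise lost their call in both corrected fits.

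**Figure D3:**
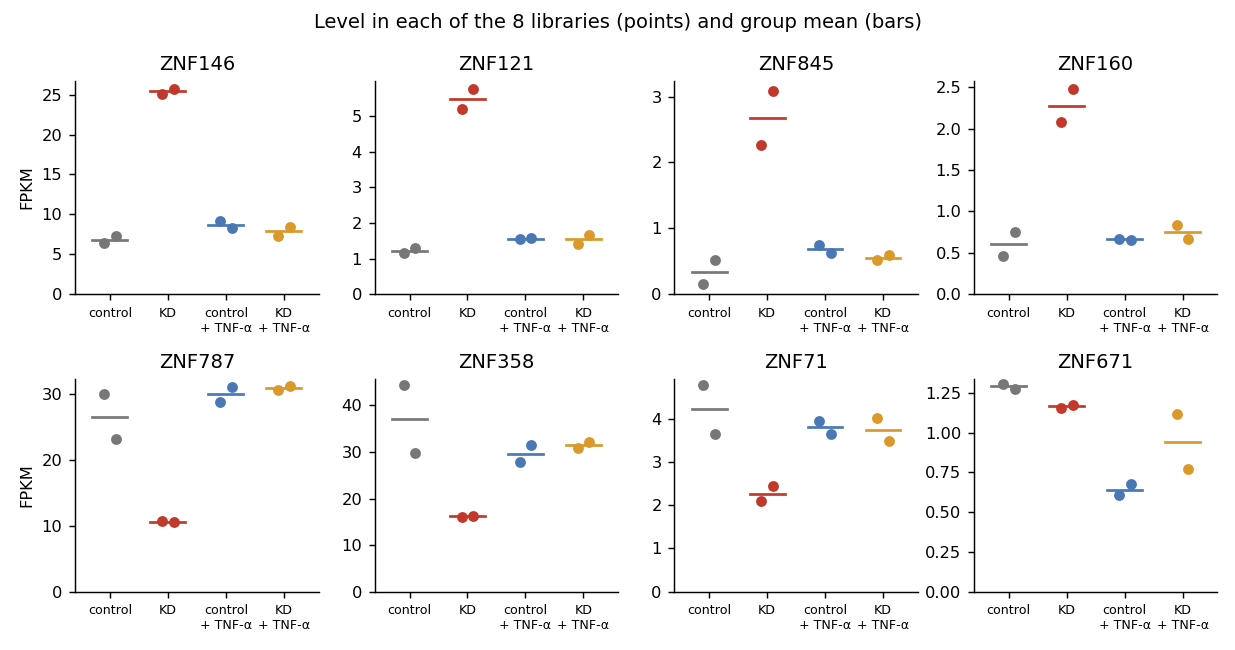
FPKM (y axis, from 0) of 8 chromosome 19 ZNF genes in each library, by group; points are the libraries and bars the mean of 2. ZNF146, ZNF121, ZNF845 and ZNF160 are highest and ZNF787, ZNF358 and ZNF71 lowest in the unstimulated KD libraries, while ZNF671 is lowest in control cells with TNF-α, at 0.605 and 0.679 FPKM.

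Of the members chosen for what is known of them, the KRAB genes tied to inflammatory signalling did not move together. ZNF71 (EZFIT), first described in endothelial cells treated with TNF, was at 4.79 and 3.64 FPKM in unstimulated control cells and 2.09 and 2.44 in unstimulated KD cells, and fell by 0.67 on the log2 scale (SE 0.14, limma adjusted p = 0.0038). It was 3.48 to 4.01 in the 4 libraries with TNF-α. ZNF160, described as a repressor of the receptor gene TLR4, rose from 0.462 and 0.747 to 2.08 and 2.48 FPKM, a log2 fold change of 1.03 (SE 0.12), and kept its call in both corrected fits. ZNF675 (TIZ), an inhibitor of the adaptor TRAF6, was scarce, at 0.118 and 0.170 FPKM against 0.349 and 0.328. Its log2 fold change was 0.23 (SE 0.05), -0.38 after correction on log2(FPKM + 1) and 0.20 (SE 0.32) on recovered reads, so its direction was not stable.

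ZNF331, an imprinted KRAB gene, rose from 1.11 and 1.23 FPKM to 2.37 and 2.78. Its log2 fold change of 0.72 (SE 0.10) hardly moved with correction on log2(FPKM + 1), at 0.69, and was 1.01 on recovered reads. Its exon GC content, 49.8%, lies near the middle of all genes. ZNF224, a KRAB repressor of the aldolase A gene, rose by 0.78 on the log2 scale, from 0.432 and 0.325 FPKM to 1.36 and 1.36, and was 0.21 (not called) and 0.92 (called) in the 2 corrected fits. It shares 40.5% of its exon bases with a second gene. ZNF91, which represses SVA elements, was at 0.0321 and 0.0611 FPKM against 0.180 and 0.214, a rise of 0.19 (SE 0.05) on log2(FPKM + 1) whose sign changed to -0.60 with correction on that scale and was 0.69 (SE 0.43) on recovered reads. ZNF274, which brings SETDB1 to the 3′ ends of ZNF genes, was 2.19 and 2.09 against 2.42 and 2.29 FPKM and was not called in any of these 3 fits. ZNF649, a repressor of serum response element reporters, had a log2 fold change of 0.26 (limma adjusted p = 0.0659).

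Along the chromosome the members formed 16 clusters, with a new cluster wherever more than 1 Mb separated 2 of them. The shares of all genes tested that rose, against which their counts can be read, were 29.8% without correction and 23.7% and 15.6% in the 2 corrected fits, and those that fell were 30.2%, 28.1% and 27.9%. The cluster from 51.57 to 53.58 Mb held 40 members, 39 of them with KRAB letters. Of its 34 tested, 31 rose and 0 fell, and the median of their log2 fold changes was 0.73. In the 2 corrected fits 20 and 26 were called higher and 2 and 0 lower. It holds ZNF845, ZNF160, ZNF28, ZNF331 and ZNF649. The cluster from 19.67 to 24.13 Mb held 37 members, among them ZNF91, ZNF93, ZNF675 and ZNF492, at a median of 0.013 FPKM. Only 12 of the 37 were tested, of which 7 rose and 0 fell. After correction on log2(FPKM + 1) none of the 12 was called higher and 9 were called lower, with a median of -0.43, and on recovered reads 1 was called higher and 0 lower, with a median of 0.66, so the sign of this cluster's median depended on the scale.

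The last cluster, from 55.48 to 58.48 Mb, held both classes side by side. Its first 9 members, from ZNF628 to ZNF444 between 55.48 and 56.16 Mb, have no KRAB letters and exon GC contents from 58.7 to 71.1%. This stretch was picked out after its values were seen. All 9 fell, by 0.54 to 1.23 on the log2 scale, where 55.1% of all tested genes at 50% GC or more fell. In the 2 corrected fits 5 and 3 of the 9 were called lower, and ZNF628, ZNF579, ZNF865 and ZNF784 were called in neither. Of the 46 tested members that follow, 24 rose and 3 fell. Over the 55 tested genes of this cluster the corrected fits called 13 and 14 higher and 9 and 6 lower.

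**Figure D4:**
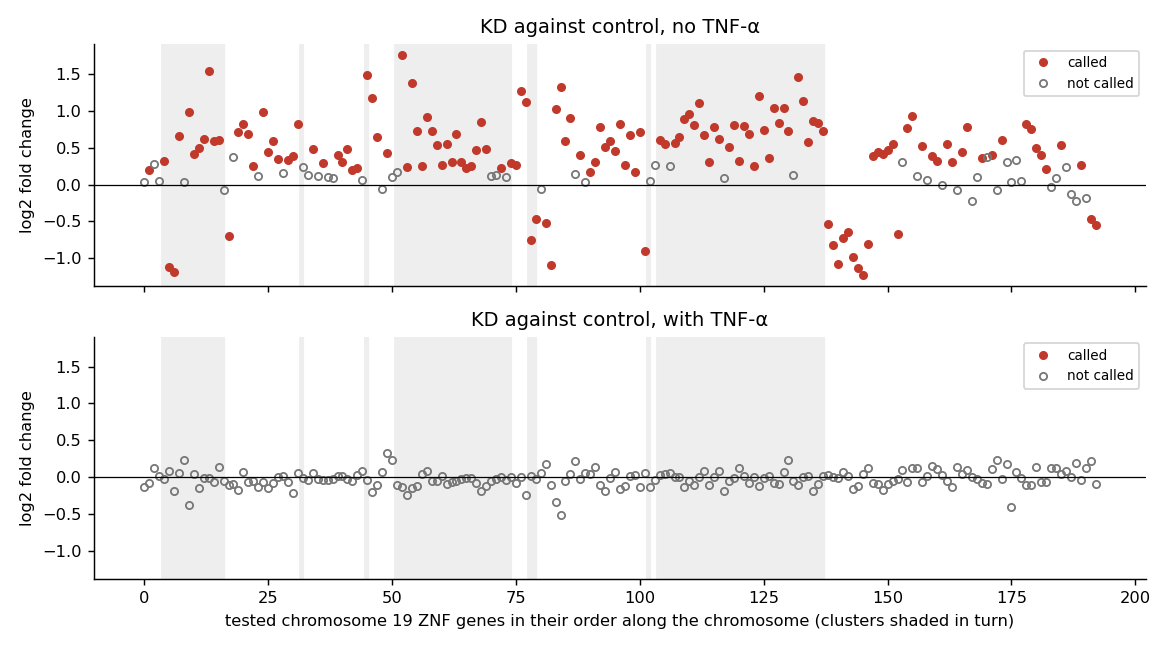
Log2 fold change of KD against control (y axis) for the 193 tested members in their order along chromosome 19 (x axis, rank), without TNF-α above and with TNF-α below; shading alternates between clusters and filled points were called at an adjusted p under 0.05. Without TNF-α 126 points are called above 0 and 20 below, and with TNF-α none is called.

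In cells treated with TNF-α no difference between KD and control cells passed the test in these genes. None of the 193 members was called higher or lower by limma, against 0.0605% and 0.0545% of all genes tested, which is 10 and 9 genes. At an unadjusted p under 0.05 there were 6 members, and voom on recovered reads called none, with 10 at an unadjusted p under 0.05. The median log2 fold change was -0.02, and 81 members lay above 0. The widest differences were -0.52 for ZNF404, from 1.67 and 1.78 FPKM in control cells to 1.14 and 0.689 in KD cells, and 0.32 for ZNF30, a member named after its value was seen. WSB2 itself differed in this comparison by -1.37 (SE 0.07), with a limma adjusted p of 0.00113. With 2 libraries a group, changes of the size of ZNF404's did not pass the adjustment here, so differences this small in single genes were not resolved.

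In control cells 1 member passed the test after 5 h of TNF-α. Of all genes tested, 3.1% rose and 1.14% fell. Among the members 0 rose and 1 fell, with 11 at an unadjusted p under 0.05 by limma, and voom called 0. The one was ZNF671, a KRAB gene, which went from 1.30 and 1.28 FPKM to 0.605 and 0.679, a log2 fold change of -0.48 (SE 0.10, limma adjusted p = 0.0468). That call was lost in each fit that left out any library. ZNF71 differed by -0.11 with TNF-α in control cells, ZNF675 by -0.13 and ZNF331 by -0.27, none of them called. In the RefSeq promoters of GRCh38.p14, running from 250 bases before to 50 after the start of a gene, 217 members were matched, and 13 of them (5.99%) held a match to the NF-κB consensus on either strand, as did 10.8% of 27305 promoters of that length.

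In KD cells most members were lower with TNF-α than without, in a comparison that uses the same 2 unstimulated KD libraries. Of the members, 22 rose and 135 fell, against 31.1% and 31.4% of all genes, with a median of -0.40. The corrected fits called 24 higher and 70 lower (29.2% and 27.7% of all genes) and 11 higher and 88 lower (32.6% and 17.9%). ZNF404 had the largest fall, from 6.47 and 7.17 FPKM to 1.14 and 0.689, a log2 fold change of -2.04 (SE 0.14). ZNF260, ZNF146, ZNF302 and ZNF283 fell by 1.58, 1.58, 1.43 and 1.38. In the corrected fits ZNF404 was -1.48 and -1.798 and ZNF146 was -1.18 and -0.92. ZNF787 and ZNF296 rose the most, by 1.46 and 1.35, and ZNF574 rose by 1.16. Their corrected values were smaller, 0.76 and 0.68 for ZNF787, 0.63 and 0.97 for ZNF296, and 0.57 and 0.56 for ZNF574, all called.

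A difference in the effect of KD between untreated and TNF-α-treated cells was called for a majority of members on log2(FPKM + 1) without correction. In the fits with the GC and length correction it was not. The interaction, the KD effect with TNF-α minus that without, was called below 0 for 106 members and above 0 for 18, against 22.3% and 23.8% of all genes. With no filter on low reads and no correction it was no majority either, at 66 below and 12 above 0 of 234 members. After correction 41 were below and 15 above 0 on log2(FPKM + 1), against 15.3% and 19.7%. On recovered reads 41 were below and 4 above, against 8.29% and 20.6%. Of ZNF genes of other chromosomes the 2 corrected fits called 22.6% and 20.4% below 0 and 7.23% and 4.26% above. The interaction rests on the unstimulated KD libraries as well.

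**Figure D5:**
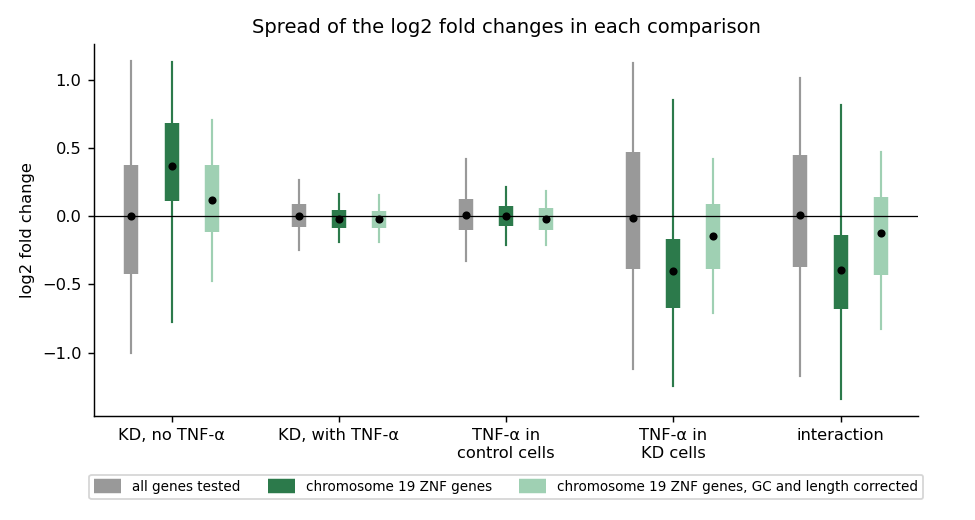
Spread of log2 fold changes in each comparison for all genes tested, for the 193 tested members, and for the members after the GC and length correction on log2(FPKM + 1). Dots are medians, thick bars run from the 25th to the 75th percentile and thin lines from the 5th to the 95th; the interaction is the KD effect with TNF-α minus that without. The members' median is 0.37 for KD without TNF-α and -0.02 for KD with it.

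The proteins through which KRAB zinc finger proteins act were examined as a list of 28 genes, all tested. In unstimulated KD cells 9 rose and 9 fell, 32.1% each way, near the 29.8% and 30.2% of all genes tested. The corrected fits called 7 and 6 higher and 12 and 12 lower. TRIM28, the common co-repressor, was by far the most abundant and fell from 211 and 172 FPKM to 99.9 and 90.6, a log2 fold change of -0.99. It was -0.41 and -0.26 in the corrected fits and remained called in both. SETDB1 did not pass the test, at 2.86 and 3.92 FPKM against 3.31 and 3.26. SUV39H1, a histone methyltransferase of constitutive heterochromatin, fell by 1.01, and was -0.47 and -0.42 in the corrected fits. The chromatin remodellers SMARCAD1 and ATRX rose by 1.88 and 1.68, and the HUSH complex gene FAM208A by 1.36. SMARCAD1 was 1.16 and 1.07 in the corrected fits, and ATRX was 0.74 and 0.35, all called. FAM208A was 0.57 and 0.26 and was not called in the second. Of the others listed, MPHOSPH8 rose by 0.96 and stayed called higher in both corrected fits. PPHLN1 rose by 0.33 but was called lower in both, at -0.36 and -0.79. HDAC2 likewise rose by 0.59 but was called lower in both, at -0.31 and -0.96. CHD3, CHD4, HDAC1, RBBP4, RBBP7 and EHMT2 were also called lower in both corrected fits, and CBX1 and CBX3 higher in both. The exon GC contents were 61.9% for TRIM28 and 58.5% for SUV39H1, and 37.6%, 35.2% and 38.4% for SMARCAD1, ATRX and FAM208A. With TNF-α, KD and control cells differed in none of the 28 by limma, with 1 at an unadjusted p under 0.05. In control cells with TNF-α 1 of the 28 rose, DAXX, a partner of ATRX, from 37.6 and 33.0 to 58.6 and 55.5 FPKM (log2 fold change 0.68).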

How the data were processed

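Gene expression was measured by bulk RNA-seq in 8 U2OS libraries, 2 in each of 4 groups. The submitters' processing notes name CASAVA 1.8, fastp, HISAT2 2.0.5, featureCounts 1.5.0-p3, DESeq2 1.20.0 and the build GRCh38 (hg38). The values deposited by the authors are FPKM: the unit is not named in the header, but every value times exon length was a whole multiple of 1 constant per library (100% of values within a tolerance of 0.05), which returned the reads. The library size in that constant was 1.21 times the recovered total in both unstimulated KD libraries and 0.925 to 1.03 times in the other 6. For the same share of reads, the FPKM of those 2 libraries are therefore lower. Genes were joined by identifier to GENCODE v29, which gave positions, exon GC content and coding sequences.

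Tests used limma 3.58.1 in R 4.3.3 on log2(FPKM + 1), with 4 group means over all 8 libraries, 4 residual degrees of freedom and trended variances, in genes with at least 10 reads at median depth in 2 libraries and 15 reads in all. This replaced the count test of the study's methods, since the deposited values are not counts. Recovered reads were tested with voom as an alternative. The scripts were tested on simulated data. GC content and length were corrected by splines with 5 degrees of freedom. Alternatives were another pseudocount (0.1), scaling and filter, leaving out a library, a replicate block and the correction.

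The members, the gene lists and the named genes were chosen with earlier results of these data known. Named were the 12 members highest in FPKM, the largest called changes that did not overlap (8 in each direction for KD without TNF-α, 5 elsewhere), 10 members of known function, and the extremes of finger number and GC content. Members with close paralogs can lose or share reads, which was not measured. Separately, by position on the chromosome, 63 members share over 10% of their exon bases with another annotated gene. Strand-specific counting is not stated in the sources used here. Protein sequences were not used beyond translation for counting.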

Additional observations from a re-analysis of the deposited data

Results flagged for a closer look

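The 10 members given here were picked as the largest interactions called by limma, so that each was called follows from the choice. Of all genes tested, 23.8% were called above 0 and 22.3% below 0. The log2 difference (KD effect with TNF-α minus without) was -1.89 for ZNF146, -1.84 for ZNF404, -1.58 for ZNF845, -1.56 for ZNF121 and -1.53 for ZNF260. It was 1.28 for ZNF787, 1.21 for ZNF358, 1.07 for ZNF524, 1.02 for ZNF581 and 0.992 for ZNF414. Their adjusted p-values by limma ran from 0.00103 (ZNF146) to 0.016 (ZNF524). Of the 5 below 0, all were also called after the GC and length correction, at -1.51, -1.32, -1.03, -0.95 and -0.83 in the same order. Of the 5 above 0, ZNF787 (0.63), ZNF358 (0.52) and ZNF581 (0.38) were called after that correction, and ZNF524 (0.42) and ZNF414 (0.35) were not. With the same correction on recovered reads by voom, the 5 below 0 were called, at -1.30 for ZNF146, -1.56 for ZNF404, -2.48 for ZNF845, -1.14 for ZNF121 and -1.001 for ZNF260, and of the 5 above 0 only ZNF787 was (0.55), the adjusted p-values of the other 4 running from 0.0806 to 0.172. The composition of the unstimulated KD libraries moves with these values, and its part in them was not tested.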

How the results depend on the processing

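The number of members called in unstimulated KD cells, 126 higher and 20 lower, ran from 104 to 124 and from 16 to 20 when 1 library was left out. Correction for GC content and length, alone, with a replicate block, with a pseudocount of 0.1 and with voom on recovered reads, the last 2 chosen after seeing the data, gave 61, 60, 53 and 72 higher and 34, 34, 10 and 11 lower, or 95, 94, 63 and 83 in all. For TNF-α in KD cells these 4 gave 94, 90, 73 and 99 called in all, with 70, 66, 63 and 88 lower, and the last 2 gave 10 and 11 higher. For the interaction they gave 56, 52, 31 and 45 in all, with 41, 38, 29 and 41 below 0, and the last 2 gave 2 and 4 above 0. With no filter on low reads the interaction was called for 78, of which 66 were below 0. Leaving out 1 library gave 10 to 21 interactions above 0, the count being 11 without the second unstimulated KD library and 10 without the first control library with TNF-α. Total-read scaling moved the median of all genes by 0.13 in unstimulated KD cells and gave 143 members higher and 16 lower. It called 6515 of all 16528 genes higher and 3456 lower. In unstimulated KD cells the 4 corrections called 3921, 3868, 2449 and 2584 of 16520 genes higher and 4642, 4500, 4221 and 4615 lower.

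For TNF-α in control cells the single call became 0 with no filter, with only the 4 libraries compared, with a pseudocount of 0.1, with voom and with the block, with or without the correction. It became 2 and 3 with the correction at a pseudocount of 0.1 and with voom. It ran from 0 to 5 when 1 library was left out: 5 without the second unstimulated control library, none of them ZNF671 (ZNF358, ZNF507, ZNF460, ZNF805 and ZNF547), and 0 without each of the others but the first unstimulated control, where it was ZNF787.

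Replicate numbers are shared by the groups, and the correlation of same-numbered libraries' deviations was 0.35 between unstimulated control and unstimulated KD cells and from -0.19 to 0.02 between the other 5 pairs of groups, so the numbers were not taken to pair the libraries. The replicate block gave 122 higher and 20 lower in unstimulated KD cells, 21 and 131 for TNF-α in KD cells, and 17 and 104 for the interaction.

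Direction reversed in 19 of 1109 alternative values of 56 single-gene results. In unstimulated KD cells, the correction alone and with the block gave -0.20 and -0.20 for ZNF492. For the correction alone, with a pseudocount of 0.1 and with the block the values were 0.031, 0.063 and 0.031 for ZNF526, -0.10, -0.16 and -0.10 for ZNF649, -0.38, -0.038 and -0.38 for ZNF675, and -0.60, -0.18 and -0.60 for ZNF91. With voom and the correction they were 0.071 for ZNF526, -0.23 for ZNF649 and 0.057 for ZNF865, which was 0.036 at a pseudocount of 0.1. ZNF71 with TNF-α in control cells ran from -0.27 to 0.049 when 1 library was left out, the upper value without the first unstimulated control library. The cause was not tested. Members near 0 FPKM were limited by depth, 56 of 249 having too few reads to test.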

Other observations

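The other large clusters of chromosome 19 ZNF genes mostly rose with KD in unstimulated cells. Their counts can be read against all genes tested, of which 29.8% rose and 30.2% fell, or 23.7% and 28.1% after the GC and length correction on log2(FPKM + 1) and 15.6% and 27.9% after that on recovered reads. In the cluster from 36.18 to 37.82 Mb, which holds ZNF146 and ZNF260, 20 of 24 tested members rose and 0 fell, but the 2 corrections gave 6 higher with 6 lower and 8 higher with 1 lower, and medians of -0.07 and 0.63. In the cluster from 43.53 to 45.08 Mb, with ZNF428, ZNF404, ZNF224, ZNF283 and ZNF296, 16 of 22 rose and 3 fell, and the corrections gave 8 with 2 and 8 with 1. In that from 11.48 to 12.64 Mb, 11 of 15 rose and 1 fell, and the corrections gave 4 with 1 and 5 with 0. In that from 7.07 to 9.79 Mb, with ZNF121, ZNF358 and ZNF414, 9 of 13 rose and 2 fell, and both corrections gave 4 with 2. With TNF-α limma called no member of any cluster between KD and control cells.

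Members with more fingers tended to have the larger log2 fold change in unstimulated KD cells. Across the 193 members, which share libraries and base composition, Spearman's rho between finger number and log2 fold change was 0.33, and it was 0.20 and 0.34 after correction for GC content and length on log2(FPKM + 1) and on recovered reads. After the correction on recovered reads the members' log2 fold change still had a rho of -0.34 with GC content.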
